A study of Mus musculus with 1 sample.

Results

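Transcripts of 7 genes that encode RNA-binding regulators of translation in germ cells were described across the cell classes of the early postnatal mouse testis: Dazl, Nanos2, Nanos3, Pum2, Msi1, Msi2 and Cpeb1. The genes were chosen by symbol from the 27998 genes listed for the library, and all 7 had at least 50 unique molecular identifiers (UMIs, tags that each mark 1 captured transcript) in the cells kept. Male germ cells keep many mRNAs in store and decide by proteins bound to their untranslated regions when each is translated or destroyed. NANOS2 and NANOS3 are zinc finger proteins that bring the CCR4-NOT deadenylase to mRNAs and so shorten the poly(A) tail. Pumilio proteins such as PUM2 bind a short sequence element in mRNAs and act with NANOS partners. DAZL and CPEB1 work on the tail in the other direction under many conditions, DAZL by recruiting poly(A)-binding protein and CPEB1 by controlling cytoplasmic polyadenylation, while the Musashi proteins MSI1 and MSI2 bind UAG-containing elements and mostly repress translation.

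The single library analysed came from 3 wild-type C57BL/6 mice at postnatal day 8, whose testis cells were pooled in equal numbers. Cells carrying THY1, a surface protein of undifferentiated spermatogonia, were enriched on magnetic beads, and a few cells of the unsorted testis suspension were added before droplet sequencing on the Chromium platform (10x Genomics, v2 chemistry). The library from knockout mice was not analysed here. With 1 library there was no replicate error, so no test was made, cells were not treated as replicates, and every interval is an exact 95% interval for counting error alone. The share of each cell class follows from the sorting and was not read as a result.

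The library held 11358045 UMIs in 970 barcodes, with 2655 to 44915 UMIs per barcode and a median of 9115, and 920 cells were kept. Clusters were formed and named without the 7 genes. Of the kept cells, 324 were germ cells: 114 were like spermatogonial stem cells (SSC-like), 77 were progenitor-like and 133 were differentiating-like. SSC-like and progenitor-like cells together are called undifferentiated below. Among the 596 somatic cells, 255 were Sertoli-like, the supporting cells of the tubule, and 186 were stromal-like. A further 94 were peritubular myoid-like, and clusters named as immune made up the rest, with 35 macrophage-like and 26 T cell-like cells. In the T cell-like class the myoid markers scored next after those of T cells. This class was not stable, with 13 cells at 20 principal components and 0 under some other settings (below). The germ stages were checked with a pair of genes kept out of the naming, the GDNF receptor genes Gfra1 and Ret. Gfra1 stood at 57.8 UMIs per 1000000 UMIs in SSC-like cells, 33.6 in progenitor-like cells and 2.40 in differentiating-like cells. Ret stood at 74.2, 67.2 and 1.80 in the same order. Ret thus did not separate SSC-like from progenitor-like cells beyond counting error (1.11-fold, interval 0.858 to 1.43). Of the 10 leading genes of the SSC-like and of the progenitor-like cluster, 0 were markers of the class. The stages differed in RNA content, with a median of 22293 UMIs per cell in the SSC-like, 19301 in the progenitor-like and 10878 in the differentiating-like class, against 8193.5 in somatic cells. Levels are therefore given as UMIs of the gene per 1000000 UMIs of the class (CPM), and they are compared within a gene and not between genes.

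In the GENCODE annotation of GRCm38 (mm10) the 7 genes lie apart. Dazl (ENSMUSG00000010592) spans chr17:50279395-50293636 on the minus strand with 6 transcripts. Nanos2 (ENSMUSG00000051965) is a gene of 1 exon at chr7:18987400-18988962 on the plus strand, and an antisense gene, Gm45058, overlaps it. Nanos3 (ENSMUSG00000056155) spans chr8:84173731-84185217 on the minus strand. Its long noncoding transcript Nanos3-203 ends in the same last exon as the coding Nanos3-201 and Nanos3-202, and the microRNA genes Mir181c and Mir181d lie inside the span, so reads from the shared end cannot be told apart by transcript. Pum2 (ENSMUSG00000020594) is at chr12:8674134-8752581 on the plus strand. Msi1 (ENSMUSG00000054256) at chr5:115429599-115455698, plus strand, and Msi2 (ENSMUSG00000069769) at chr11:88339382-88718513, minus strand, each overlap an antisense gene, 4930430O22Rik and Gm15893. Cpeb1 (ENSMUSG00000025586) is at chr7:81347026-81455465 on the minus strand.

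The 4 genes whose levels were at least 2-fold higher in germ cells than in somatic cells (below) differ widely in their promoter letters, which are shown for that reason. Each line gives the 250 bases before the RefSeq start of the gene on GRCm38.p6, 5′ to 3′ on the strand of the gene. Capitals mark exact matches on either strand to 6 short promoter motifs. The motif letters searched were TATAAA, which positions the start of transcription, then CCAAT, the element bound by NF-Y, then GGGCGG, the GC box bound by SP factors, then CACGTG, the E-box bound by helix-loop-helix factors, then TGACG, a half-site for CREB family factors, and last GCGCATGC, the motif of NRF1.
Dazl, chr17:50293621-50293870, minus strand: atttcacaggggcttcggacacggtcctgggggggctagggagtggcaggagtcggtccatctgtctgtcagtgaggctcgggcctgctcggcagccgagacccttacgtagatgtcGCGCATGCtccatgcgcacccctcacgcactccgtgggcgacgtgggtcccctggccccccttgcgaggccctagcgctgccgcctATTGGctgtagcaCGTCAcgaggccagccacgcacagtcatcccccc
Nanos2, chr7:18987274-18987523, plus strand: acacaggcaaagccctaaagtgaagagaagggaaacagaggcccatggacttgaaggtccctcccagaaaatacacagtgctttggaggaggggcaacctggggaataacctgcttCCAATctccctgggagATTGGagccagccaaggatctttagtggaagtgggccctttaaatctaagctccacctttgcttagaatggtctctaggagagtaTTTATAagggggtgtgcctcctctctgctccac
Nanos3, chr8:84176553-84176802, minus strand: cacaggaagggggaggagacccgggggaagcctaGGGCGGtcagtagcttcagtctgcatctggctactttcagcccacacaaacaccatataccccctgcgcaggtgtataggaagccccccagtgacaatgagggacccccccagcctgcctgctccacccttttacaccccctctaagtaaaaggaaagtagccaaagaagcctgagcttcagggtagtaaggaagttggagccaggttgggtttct
Cpeb1, chr7:81454759-81455008, minus strand: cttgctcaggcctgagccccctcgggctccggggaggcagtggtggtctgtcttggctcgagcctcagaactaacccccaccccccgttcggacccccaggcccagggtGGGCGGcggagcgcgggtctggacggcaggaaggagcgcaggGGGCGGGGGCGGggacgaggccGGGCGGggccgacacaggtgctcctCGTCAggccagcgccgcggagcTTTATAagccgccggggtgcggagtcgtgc

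The Dazl window held 20 CpG dinucleotides and an NRF1 motif, which was found in 2.26% of the 32851 windows of this length. The Nanos2 window held 0 CpG dinucleotides, against a median of 6 over all windows, with a match to TATAAA 33 bases before the start and 2 CCAAT boxes. The Nanos3 window held 3 CpG dinucleotides and 1 GC box, and the Cpeb1 window held 25 with 4 GC boxes, 2 of them adjacent, and a match to TATAAA 30 bases before the start. Over all windows, 12.4% held TATAAA, 33.8% a CCAAT box, 32.7% a GC box, 17.8% a CRE half-site and 6.02% an E-box, and an E-box was in none of the 4 windows printed. The windows of the broadly detected genes Pum2 and Msi2, which have 3 listed starts each, held 34 and 29 CpG dinucleotides at the first of them. The Dazl and Nanos2 windows reach into the genes as GENCODE draws them, the Cpeb1 window lies wholly inside the GENCODE span, and the Nanos3 window lies in the intron of the noncoding Nanos3-203. These are matches of letters and not shown to be bound.

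Across the 8 cell classes the 7 genes fell into 2 kinds of pattern. Dazl, Nanos2, Nanos3 and Cpeb1 were found mainly in germ cells. Pum2, Msi1 and Msi2 were at least as high in Sertoli-like cells as in the germ cells as a whole. Of the 7 genes, 4 were at least 2-fold higher in germ than in somatic cells and 0 were at least 2-fold lower. Among the 11027 genes with at least 50 UMIs in these cells, 24.0% were that much higher and 26.7% that much lower. Nanos2, Nanos3 and Cpeb1 passed this limit of 50 UMIs through germ cells alone, with 0, 33 and 4 somatic UMIs. With 0 somatic UMIs, Nanos2 could be counted only as higher.

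**Figure D1:**
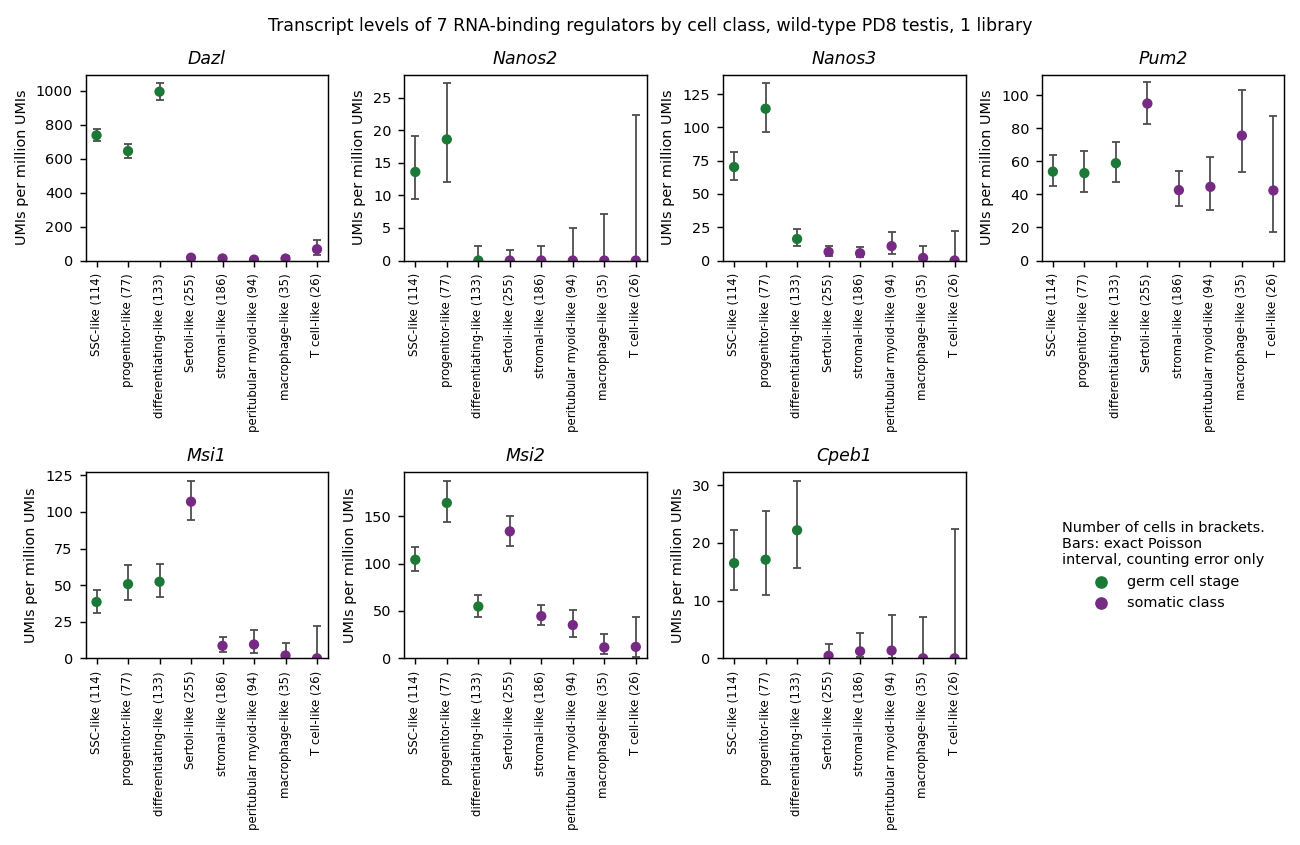
Levels of the 7 genes in UMIs per 1000000 UMIs (vertical axis, from 0, scaled for each gene) in the 3 germ cell stages (green) and 5 somatic classes (purple), with exact 95% Poisson intervals for counting error. Dazl lies at 645 to 995 in the germ stages and at 66.6 or lower in every somatic class, Nanos2 is at 0 outside SSC-like and progenitor-like cells, and the highest points of Pum2 and Msi1 are the Sertoli-like cells.

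Dazl, which licenses germ cells for sexual development and supports the translation of germ cell mRNAs, was found in nearly every germ cell of all stages. Its level was 738 CPM (interval 705 to 773) in SSC-like cells, 645 (604 to 689) in progenitor-like cells and 995 (947 to 1044) in differentiating-like cells. The highest level was thus in the differentiating-like cells, 1.41-fold above undifferentiated cells (interval 1.33 to 1.50), and the intervals of the 3 stages did not overlap. Per 10000 UMIs of a cell, the median over cells was 7.01 UMIs in the SSC-like, 6.28 in the progenitor-like and 9.85 in the differentiating-like class, and the tenth and ninetieth percentiles in the last were 5.01 and 17.0, so the cells of the stages overlapped widely. Dazl was slightly higher in the SSC-like than in the progenitor-like class (log2 ratio 0.19, interval 0.08 to 0.31) but the sign turned without the limit on mitochondrial UMIs, at -0.02, and when vst chose the variable genes, at -0.03.

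At least 1 Dazl UMI was present in 322 of 324 germ cells, which is 99.4% (97.8 to 99.9% by the exact binomial interval), and in 72 of 596 somatic cells (12.1%, interval 9.57 to 15.0%), at median depths of 18216.5 and 8193.5 UMIs. At 5000 UMIs per cell the expected shares were 96.7% and 6.38%. Summed over cells, germ cells stood 53.7-fold above somatic cells (interval 43.0 to 68.0). The somatic level was 16.6 CPM in Sertoli-like, 12.2 in stromal-like, 11.6 in macrophage-like and 5.40 in peritubular myoid-like cells, and neighbours in this order lay within counting error of each other. The ends of it differed, with Sertoli-like 3.06-fold above peritubular myoid-like cells (interval 1.10 to 11.8). T cell-like cells were higher, at 66.6 CPM, but this came from 11 UMIs in 8 of 26 cells, where of the 5 germ cell markers Zbtb16 had 1 UMI and Ddx4, Sohlh1, Tdrd1 and Taf4b had 0. The upper limits for those at 0 ran from 9.59% of the germ cell level for Sohlh1 to 59.1% for Taf4b, above the 8.42% of Dazl, and the part of germ cell RNA in this level was not tested. Without the T cell-like cells the log2 ratio of germ to somatic cells moved from 5.75 to 5.92.

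Nanos2, which keeps SSCs from entering differentiation by repressing bound mRNAs, was detected in undifferentiated spermatogonia and nowhere else in this library. SSC-like cells held 34 UMIs (13.6 CPM) and progenitor-like cells 26 (18.6 CPM), and over both the level was 15.4 CPM (interval 11.8 to 19.8). The 133 differentiating-like cells held 0 UMIs, which at 3 counts allows a level of up to 1.80 CPM and a share of cells with a UMI of up to 2.26% (2.74% by the exact binomial limit). All 596 somatic cells held 0 as well, which allows a share of up to 0.503% (0.617% by the exact limit). In the small immune classes the exact limits on the level were loose, at 7.15 CPM in macrophage-like and 22.4 CPM in T cell-like cells. The latter lies above the 15.4 CPM of undifferentiated cells, so a lower level in T cell-like cells was not shown. With the count of 0 set to 3 UMIs over the group, Nanos2 was at least 8.55-fold higher in undifferentiated than in differentiating-like cells and at least 19.3-fold higher in germ than in somatic cells. The lower limits of the exact 95% intervals, which allow for the counting error of both groups, were 6.74-fold and 15.2-fold. Nanos2 therefore passed the limit of 50 UMIs through its undifferentiated cells alone.

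Between the SSC-like and progenitor-like cells Nanos2 could not be ordered. The log2 ratio was -0.45 with an interval from -1.22 to 0.35, and it ran from -0.54 to 0.81 over the alternative settings. A Nanos2 UMI was present in 22 of 114 SSC-like cells (19.3%, interval 12.5 to 27.7%) and in 21 of 77 progenitor-like cells (27.3%, interval 17.7 to 38.6%), with at most 4 UMIs in a cell. At 5000 UMIs per cell the expected shares were 5.92% and 8.94%. The 43 cells with a Nanos2 UMI had 1.58-fold more Gfra1 per UMI (interval 1.15 to 2.15) and 1.41-fold more Ret (1.08 to 1.83) than the other 148 undifferentiated cells. They had less of the differentiation genes Stra8, the retinoic acid-induced gatekeeper of meiosis (0.406-fold, interval 0.295 to 0.548), and Sohlh1, a transcription factor of spermatogonial differentiation (0.653-fold, interval 0.543 to 0.781). A Stra8 UMI was present in 10 of the 43 cells with Nanos2 and in 47 of the 148 without. Without the 5 cells with the most Stra8 UMIs, which held 158 of 419, the Stra8 ratio was 0.264 (0.160 to 0.412). As SSC-like and progenitor-like cells were pooled for these ratios, they include any difference between the classes. The median depths of the groups of cells with and without Nanos2 were 21166 and 19911 UMIs. These intervals cover counting error alone and not the spread between cells.

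Nanos3, the paralog needed for survival of primordial germ cells, was highest in progenitor-like cells and much lower in the differentiating-like clusters. Its level was 70.2 CPM (interval 60.2 to 81.4) in the SSC-like, 114 (96.6 to 133) in the progenitor-like and 16.2 (10.7 to 23.6) in the differentiating-like class. Undifferentiated cells stood 5.29-fold above differentiating-like cells (interval 3.57 to 8.15), and the progenitor-like level was 1.62-fold that of SSC-like cells (1.30 to 2.02). A UMI was present in 62.3% of the SSC-like, 74.0% of the progenitor-like and 13.5% of the differentiating-like class. The shares expected at 5000 UMIs kept this order, at 27.8%, 38.6% and 5.39%. These expected shares leave out cells under 5000 UMIs, 36 of 133 in the differentiating-like class. As a log2 ratio of SSC-like to progenitor-like cells this was -0.69 (interval -1.01 to -0.37). Nanos2, with fewer UMIs, was at -0.45, and its interval (-1.22 to 0.35) held that of Nanos3. A difference between these 2 genes was therefore not shown. Of the 43 undifferentiated cells with a Nanos2 UMI, 34 also had a Nanos3 UMI, against 94 of the other 148. Undifferentiated cells with a Nanos3 UMI had less Gfra1 than those without (0.598-fold, interval 0.445 to 0.806). They had more Sox3, a progenitor marker (2.23-fold, interval 1.37 to 3.81). Sox3 was among the markers that named the progenitor-like cells, so its direction is no separate result. SSC-like and progenitor-like cells were pooled here, so these ratios include the difference between the classes.

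Low Nanos3 counts in somatic cells were spread thinly, with 33 UMIs in 33 of 596 cells and never more than 1 in a cell. The somatic level of 6.16 CPM was 9.48% of the germ cell level (interval 6.42 to 13.6%), above the 1.86% of Dazl (1.47 to 2.33%). Among the germ cell markers the same percentage was 2.22% for Zbtb16, 2.32% for Sohlh1, 2.50% for Ddx4, 4.73% for Tdrd1 and 9.78% for Taf4b (interval 5.85 to 15.5%). The Nanos3 percentage was thus higher than those of Dazl, Ddx4, Sohlh1 and Zbtb16 and close to that of Taf4b. The 16.2 CPM of differentiating-like germ cells lay within counting error of the peritubular myoid-like level (log2 ratio 0.59, interval -0.59 to 1.94). Sertoli-like (6.53 CPM), stromal-like (5.48) and peritubular myoid-like cells (10.8) could not be ordered beyond counting error. The somatic counts came from 3′ reads. Whether these somatic reads are free RNA, the noncoding transcript that shares the last exon or expression of the gene was not tested.

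**Figure D2:**
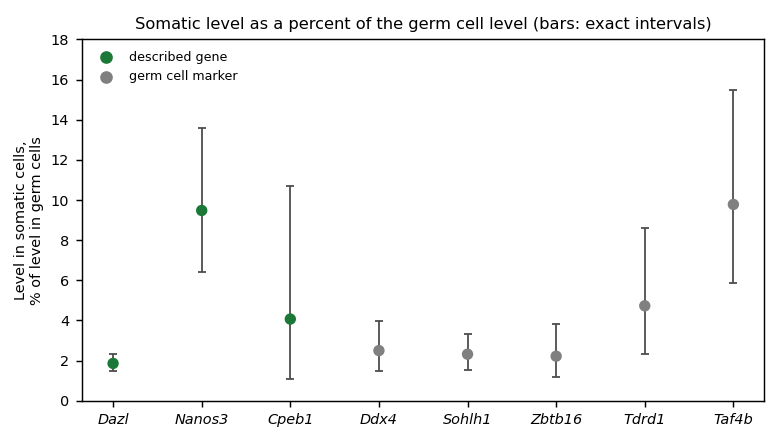
Level in somatic cells as a percent of the level in germ cells (vertical axis) for 3 of the described genes (green) and 5 germ cell markers (grey), with exact 95% intervals for counting error. Nanos3 at 9.48% and Taf4b at 9.78% lie above Dazl at 1.86% and Ddx4 at 2.50%, and the Cpeb1 interval, from 4 somatic UMIs, spans both.

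Pum2, the Pumilio partner of NANOS proteins, was level across the germ stages. It stood at 53.8 CPM (interval 45.1 to 63.7) in the SSC-like, 52.9 (41.5 to 66.4) in the progenitor-like and 58.9 (47.8 to 71.8) in the differentiating-like class. The log2 ratio of SSC-like to progenitor-like cells was 0.02 (-0.40 to 0.45) and that of undifferentiated to differentiating-like cells -0.14 (-0.49 to 0.22), so differences of 2-fold lay outside both intervals. Sertoli-like cells were highest, with 218 UMIs and an interval from 82.8 to 108 CPM, 1.72-fold above germ cells (1.44 to 2.06) and 2.23-fold above stromal-like cells (1.69 to 2.96). Macrophage-like cells followed at 75.6 CPM, and no neighbours in the order of the 8 classes differed beyond counting error.

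Msi1 and Msi2, the Musashi paralogs, shared a high level in Sertoli-like cells but were arranged differently among germ cells. Msi1 was at 107 CPM (interval 94.2 to 121) in Sertoli-like cells, 2.34-fold above germ cells (1.96 to 2.80), and at 8.53 in stromal-like and 9.45 in peritubular myoid-like cells, so that within the somatic cells it was 12.6-fold higher in Sertoli-like than in stromal-like cells (7.35 to 23.3). In germ cells it was 38.5 CPM in the SSC-like, 50.7 in the progenitor-like and 52.3 in the differentiating-like class. Neighbours in this order did not differ beyond counting error, while the SSC-like and differentiating-like ends did, narrowly (log2 ratio -0.44, interval -0.87 to -0.01). Averaged over all somatic classes, Msi1 showed little difference from germ cells (log2 ratio -0.13, interval -0.38 to 0.12), an average that hides the contrast between Sertoli-like and other somatic cells.

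Msi2 had its highest level in progenitor-like cells, at 164 CPM (interval 144 to 187), followed by Sertoli-like cells at 134 (119 to 150), SSC-like cells at 104 (91.7 to 117) and differentiating-like cells at 54.7 (44.0 to 67.2). Each of these steps was larger than counting error. Progenitor-like cells were 1.58-fold above SSC-like cells (1.32 to 1.90), and undifferentiated cells 2.30-fold above differentiating-like cells (1.83 to 2.91). Without the smaller of the differentiating-like clusters, described below, the latter ratio was 1.93-fold (1.52 to 2.47), under the 2-fold limit. Msi2 was lower in stromal-like (44.5 CPM) and peritubular myoid-like cells (35.1), which did not differ beyond counting error. A Msi2 UMI was present in 84.2% of the SSC-like, 81.8% of the progenitor-like and 42.9% of the differentiating-like class. At 5000 UMIs per cell the expected shares were 39.0%, 52.4% and 22.2%, so the order of the undifferentiated classes at full depth was not that at equal depth.

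Cpeb1, which controls the poly(A) tails of stored mRNAs and is required for meiosis, was low and close to restricted to germ cells. It stood at 16.5 CPM (interval 11.8 to 22.3) in the SSC-like, 17.1 (11.0 to 25.5) in the progenitor-like and 22.2 (15.7 to 30.7) in the differentiating-like class, which did not differ beyond counting error. Somatic cells held 4 UMIs in 596 cells, against 102 in germ cells, a 24.6-fold difference (interval 9.32 to 92.0). A UMI was present in 25.9% of germ cells and 0.671% of somatic cells, and the shares expected at 5000 UMIs were 9.53% and 0.551%.

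The comparison of stages within germ cells asked whether the translation regulators mark the stem cell, progenitor and differentiating states. Between SSC-like and progenitor-like cells 0 of the 7 genes differed by 2-fold in either direction, where 4.23% of 7025 genes with at least 50 UMIs were that much higher in SSC-like cells and 1.22% that much lower. Nanos3 and Msi2 were lower in SSC-like cells and Dazl slightly higher with intervals off equality, and the rest could not be ordered. Between undifferentiated and differentiating-like cells Nanos2, Nanos3 and Msi2 were at least 2-fold higher, which is 3 of 7, and 0 were 2-fold lower. Of 8219 genes, 7.65% were that much higher and 5.65% that much lower. Of these 3 genes, Nanos2 and Nanos3 passed the limit of 50 UMIs through the undifferentiated cells alone, with 0 and 27 differentiating-like UMIs. With 0 differentiating-like UMIs, Nanos2 could be counted only as higher. Msi2 was at 1.93-fold without the smaller of the differentiating-like clusters.

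**Figure D3:**
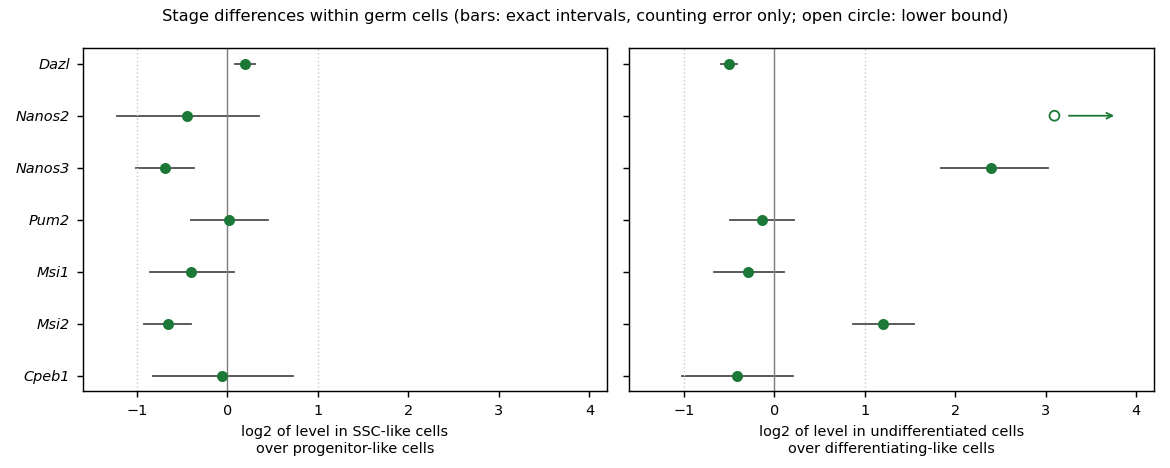
The log2 ratio of the level in SSC-like over progenitor-like cells (left) and in undifferentiated over differentiating-like cells (right) for the 7 genes, with exact 95% intervals for counting error, dotted lines at 2-fold and an open circle for a lower bound. On the left every point lies within 2-fold, and on the right Nanos2, Nanos3 at 2.40 and Msi2 lie beyond it while Dazl is at -0.50.

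The differentiating-like cells were not uniform. They formed a larger cluster of 101 cells, with a median of 8530 UMIs per cell, and a cluster of 32 cells led by the homeobox gene Esx1 and the protease gene Prss50, with a median of 12208. Stra8 was among the leading genes of both, at 890 and 1000 CPM. Nanos3 had 27 UMIs (21.5 CPM, interval 14.1 to 31.2) in the larger cluster and 0 in the Esx1-led cluster, where 3 counts would be a level of 7.39 CPM. Msi1 was at 66.8 CPM (53.3 to 82.7) in the larger cluster, 1.56-fold above undifferentiated cells (1.18 to 2.04). In the Esx1-led cluster it was at 7.39 CPM from 3 UMIs, and the ratio of the clusters was 9.04 (interval 2.99 to 44.7).

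Msi2 went the same way, from 65.2 CPM (51.9 to 80.9) to 22.2 (10.1 to 42.1). Dazl and Cpeb1 went the other way. Dazl was at 949 CPM (896 to 1004) and 1137 (1036 to 1246), and Cpeb1 at 17.5 (11.0 to 26.5) and 36.9 (20.7 to 60.9), a 2.11-fold difference with an interval from 1.02 to 4.26. Pum2 was at 53.3 and 76.3 CPM, within counting error. The near absence of a stage difference in Msi1 was thus the sum of 2 unlike clusters: without the Esx1-led cluster, the log2 ratio of undifferentiated to differentiating-like cells was -0.64 (against -0.29).

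**Figure D4:**
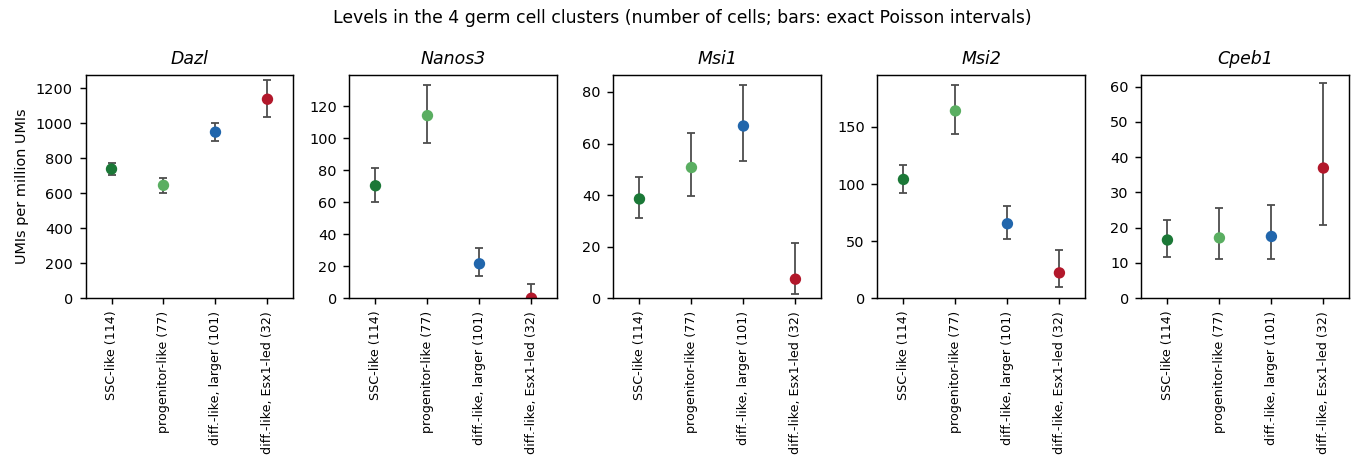
Levels in UMIs per 1000000 UMIs (vertical axes, from 0) of 5 of the genes in the 4 germ cell clusters, with exact 95% Poisson intervals for counting error and the number of cells in brackets. Msi1 is at 66.8 in the larger and 7.39 in the Esx1-led differentiating-like cluster, Nanos3 and Msi2 are lower in both than in undifferentiated cells, and Dazl is highest in the Esx1-led cluster at 1137.

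Within undifferentiated spermatogonia, Msi1 was found together with Stra8, a pair chosen after its values were seen. The 102 undifferentiated cells with a Msi1 UMI had 371 Stra8 UMIs and the 89 cells without had 48, which is 164 against 29.5 CPM and a 5.56-fold difference (interval 4.11 to 7.67). Stra8 was present in 40 of the 102 cells and in 17 of the 89. A single cell held up to 46 Stra8 UMIs, and the 5 cells with the most held 158 of 419. Without those 5 cells the difference was 6.98-fold (4.61 to 11.0). These intervals cover counting error alone and not the spread between cells. Cells with a Msi1 UMI were deeper, with a median of 21268.5 UMIs against 18356, and the part of depth in the result was not tested. Dazl showed no such difference, at 711 and 696 CPM in the same groups of cells. In the Esx1-led differentiating-like cluster, where Stra8 was among the leading genes, Msi1 had 3 UMIs.

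Transcripts of the deadenylase recruited by NANOS proteins were counted in all the germ stages. All 11 CCR4-NOT subunit genes passed the limit of 50 UMIs, and 2 of the 11 were at least 2-fold higher in germ than in somatic cells, against 24.0% of all genes compared. These were Cnot11 (78.5 against 18.8 CPM, 4.16-fold) and Cnot10 (42.8 against 20.9 CPM, 2.05-fold). Between stages 0 of the 11 differed by 2-fold, where 4.23% of all genes were higher and 1.22% lower in SSC-like than in progenitor-like cells, and 7.65% higher and 5.65% lower in undifferentiated than in differentiating-like cells. Cnot1, which encodes the scaffold of the complex, was at 88.1 CPM in undifferentiated and 64.3 in differentiating-like cells (log2 ratio 0.45, interval 0.14 to 0.78). Cnot2 went the same way (log2 ratio 0.65, interval 0.23 to 1.09). The nuclease genes were not alike. Cnot6l was higher in undifferentiated cells, at 47.0 against 24.0 CPM (log2 ratio 0.97, interval 0.47 to 1.50), and Cnot7 and Cnot8 were lower (log2 ratios -0.46 and -0.66). Cnot6, at 35.5 against 46.3 CPM, did not differ beyond counting error (log2 ratio -0.38, interval -0.80 to 0.04). The median log2 ratio of the list was 0.69 for germ over somatic cells, against 0.07 for all genes, and 0.04 for undifferentiated over differentiating-like cells, against -0.10.

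Of 11 genes for poly(A) tail and cap factors, 5 were at least 2-fold higher in germ cells, against 24.0% of all genes, and 0 differed by 2-fold between stages, against the shares given for the CCR4-NOT genes. The cleavage and polyadenylation factor genes Cpsf1 (3.35-fold), Cpsf4 (2.29-fold) and Cpsf3 (2.22-fold) were among them, with Papd4, which encodes a cytoplasmic poly(A) polymerase (2.28-fold), and Pabpc1, the poly(A)-binding protein gene (742 against 322 CPM, 2.30-fold). Their median log2 ratio was 0.89 for germ over somatic cells. Parn, a deadenylase gene, and Pabpc4 had the lowest ratios of undifferentiated to differentiating-like cells on this list (log2 -0.92, interval -1.48 to -0.36, and -0.88, interval -1.35 to -0.41).

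The remaining family members described here were either sparse or found mainly in germ cells. Nanos1 (25.7 against 1.68 CPM, 15.3-fold) and Boll, the DAZ family gene of later germ cells (31.5 against 0.373 CPM), were higher in germ cells, and Boll rested on 2 somatic UMIs (log2 ratio 6.40, interval 4.52 to 9.46). Cpeb2, Cpeb3 and Cpeb4 had fewer than 50 UMIs and were not compared. Nanos1 and Boll passed this limit through germ cells alone, with 9 and 2 somatic UMIs. Nanos1 and Boll differed by less than 2-fold between stages, and Nanos1 was at 20.8 CPM in undifferentiated against 37.3 in differentiating-like cells (log2 ratio -0.84, interval -1.34 to -0.34), the direction opposite to Nanos2 and Nanos3.

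Among 15 other RNA-binding protein genes of germ cells, 9 of the 14 compared were at least 2-fold higher in germ cells, against 24.0% of all genes. The largest differences were those of Igf2bp1 (64.4-fold), Lin28a, which blocks let-7 maturation (63.3-fold), Elavl2 (50.6-fold) and Lin28b (25.1-fold from 3 somatic UMIs, log2 interval 3.05 to 6.96). Meioc, with 60 germ and 0 somatic UMIs, was at least 19.3-fold higher. It passed the limit of 50 UMIs through germ cells alone. So did Lin28b, Lin28a, Elavl2, Igf2bp1, Dnd1 and Ythdc2, with 3, 5, 8, 9, 32 and 39 somatic UMIs in this order. Between SSC-like and progenitor-like cells 11 of the 15 were compared, with 0 at least 2-fold higher and 1 at least 2-fold lower in SSC-like cells. Over all genes the shares were 4.23% and 1.22%. The lower gene was Lin28a, at 50.6 and 104 CPM (log2 ratio -1.04, interval -1.40 to -0.69), the same direction as Nanos3 and Msi2. Elavl2 came near 2-fold in the other direction, at 95.5 and 48.6 CPM (log2 ratio 0.98, interval 0.58 to 1.39).

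Between undifferentiated and differentiating-like cells this list went both ways, with 2 of 14 genes at least 2-fold higher and 4 of 14 at least 2-fold lower, against 7.65% and 5.65% of all genes. Bicc1, an RNA-binding protein gene related to Drosophila Bicaudal-C, was 6.84-fold higher in undifferentiated cells (41.1 against 6.01 CPM) and Lin28a 2.08-fold higher. Meioc (2.83 against 29.5 CPM, log2 ratio -3.38, interval -4.47 to -2.42) and Ythdc2 (11.0 against 40.3 CPM, log2 ratio -1.87, interval -2.45 to -1.29) were lower. The products of these 2 genes act together to clear mitotic transcripts at the entry into meiosis. Rbm46, which encodes a cofactor of that pair, was lower as well, at 109 against 233 CPM, as was Lin28b at 10.8 against 21.6.

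Of 8 listed mRNAs known as bound or repressed by these proteins, 7 were at least 2-fold higher in germ cells, against 24.0% of all genes. The list was chosen with earlier results of these data known and does not cover all targets. Ddx4 on it was among the markers that named the germ cells, so this count is no separate result. All 7 also passed the UMI limit for comparison through germ cells alone, with from 1 (Sohlh2) to 40 (Tex19.1) somatic UMIs. Numb, a Musashi target, was at 12.1 CPM in germ and 10.6 in somatic cells. Between undifferentiated and differentiating-like cells, Stra8 was at 108 and 917 CPM (log2 ratio -3.09, interval -3.25 to -2.93) and Sycp3, a synaptonemal complex gene, at 125 and 274 (log2 ratio -1.13, interval -1.32 to -0.94). Stra8 and Sycp3 were among the markers that named the differentiating-like cells, so their direction is no separate result. Sycp1 stood at 224 and 403 CPM, and the DAZL-bound Ddx4 and Tex19.1 differed by less than counting error, at 137 and 129 CPM and at 238 and 234 CPM. Abundance alone was measured here, and translation of these mRNAs was not.

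The genes whose pattern over the 8 classes was nearest to each of the 7 were found by the mean absolute difference of centred log2(CPM + 1), among 9067 genes with at least 100 UMIs. For Dazl they were 1700018B24Rik (difference 0.19) and Tuba3b (0.31), against a median of 2.57 over all candidates. For Nanos2 they were the transcription factor genes Egr2 (0.42) and Foxc2 (0.43) and Fbxo41 (0.56). For Nanos3 they were Brdt (0.45), Tdrd5 (0.55) and Fam208b (0.64), the first a testis bromodomain gene and the second a gene of the piRNA pathway.

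Pum2 was followed closely by broadly detected genes, Brk1, Ppp2ca and Ep300 (0.10 to 0.11). Msi1 was nearest to Wasf1 (0.34), Myl6b and Fbxo21 (0.50 each), Msi2 to Zfp251 (0.29) and Kdm5b (0.36), and Cpeb1 to Ciart (0.22), Chd3os (0.24) and Rspo4 (0.27). The median difference over all candidates was 1.56 for Nanos2, 1.68 for Nanos3 and 0.74 for Pum2. It was 1.75 for Msi1, 1.15 for Msi2 and 1.64 for Cpeb1. These likenesses rest on 8 classes of 1 library, among them the unstable T cell-like class, and are descriptions.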

How the data were processed

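The authors demultiplexed the reads and counted UMIs per gene and barcode with Cell Ranger 2.1.0 against mm10, and deposited the raw counts without normalization. That counting is by gene, mainly from transcript 3′ ends. Cells with at least 500 genes, under 10% mitochondrial UMIs (36 barcodes were at or over it) and no doublet call by scrublet (scanpy 1.11.5, expected rate 0.01, 4 calls of 970, a share too low to show that the caller worked) were kept. Cells were clustered with Seurat 5.3.0 in R 4.3.3 (genes in at least 3 cells, 10000 UMIs per cell, mean.var.plot, 14 principal components, resolution 0.5), and germ cells were clustered again. The 7 genes were left out of the variable genes and marker lists. A cluster took the class with the highest mean log-normalized marker difference, with at least 3 markers detected. Levels are summed counts per 1000000 UMIs with exact Poisson intervals, shares have exact binomial (Clopper-Pearson) intervals, and ratios conditional binomial intervals. A count of 0 was set to 3 counts for bounds. Expected shares at 5000 UMIs leave out shallower cells, 45 germ and 48 somatic. Intervals and floors cover counting error only, at 95%.

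A 2-fold difference among genes with at least 50 UMIs was counted as higher or lower. All 7 genes are named, with up to 3 genes nearest to each in pattern and up to 4 genes per list and comparison that differed most, and some others chosen after their values were seen. Some genes that this rule or the lists name are not reported here. The 7 genes and the lists were chosen with earlier results of these data known. The listed symbol for symplekin was corrected to Sympk, and Cnot11 was taken under its own symbol. Of the T cell markers, 4 were used, as Trbc2 was not matched. On 300 simulated cells with 27998 genes, of which 200 were changed between the first class and the others, 99.7% of cells got the right name, and intervals between the first 2 classes held the true ratio for 92% of 100 genes changed 2-fold and 95% of 100 changed 4-fold. The simulated classes were germ, Sertoli and stromal cells with their own markers raised, and the cells differed by counting error and depth alone. The naming of germ stages and the spread between real cells were therefore not tried by this simulation. Alternatives covered filters, clustering, naming, counts and denominators. Promoter letters are from RefSeq (GRCm38.p6, 6 of the 7 genes matched). Gene positions are from GENCODE vM21.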

Additional observations from a re-analysis of the deposited data

How the results depend on the processing

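No paired analysis was possible because there is 1 library. Of 354 values recomputed, 334 stayed within the interval of the main value, 18 moved beyond it and 2, whose main interval excluded equality, changed sign. Values for comparisons are log2 ratios, and for all that changed the cause was not tested. For SSC-like over progenitor-like cells, Dazl reversed when no mitochondrial limit was set (-0.02) and when vst chose 2000 variable genes (-0.03), and Nanos2, whose interval spans 0, turned from -0.45 to 0.42 and 0.81 under these settings and to 0.41 with the counts split. For germ over somatic cells, a mitochondrial limit of 5%, which kept 67 germ cells and gave no stages, moved Dazl to 6.12, Msi1 to 0.76 and Msi2 to 0.80. With at least 200 genes per cell, where 67 germ cells fell among the somatic cells under a red blood cell name, Dazl moved to 3.47 and Nanos3 to 2.63. For undifferentiated over differentiating-like cells, Dazl moved to -0.41 without mitochondrial and ribosomal protein genes in the denominator, Nanos3 to 1.79 by vst and Pum2 to -0.59 with the counts split. At 5000 UMIs per cell the expected share of germ cells with a UMI was 96.7% for Dazl, 4.62% for Nanos2, 22.7% for Nanos3, 24.2% for Pum2, 19.7% for Msi1, 36.5% for Msi2 and 9.53% for Cpeb1, against 99.4%, 13.3%, 45.1%, 53.4%, 46.9%, 66.7% and 25.9% at full depth. A resolution of 0.3 gave no progenitor-like class. The T cell-like class fell from 26 to 13 cells with 20 principal components. It held 0 cells when vst chose the variable genes, with the counts split and with a mitochondrial limit of 5%. Settings chosen after seeing the data, with cells of at least 5000 UMIs, without T cell-like cells or without the Esx1-led cluster, kept each value within its interval, though Msi2 came to 0.95 for undifferentiated over differentiating-like cells without the Esx1-led cluster, under 2-fold. Between SSC-like and progenitor-like cells the intervals of Nanos2 and Cpeb1 were the widest of the 7.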

Other observations

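The Sertoli-like cells were in 3 clusters, and the Musashi and Pumilio genes were high in each. Msi1 stood at 93.3 CPM (interval 76.4 to 113) in the largest, of 132 cells, at 145 (118 to 176) in the second, of 78 cells, and at 85.3 (60.9 to 116) in the third, of 45 cells. Msi2 was at 133, 139 and 128 CPM and Pum2 at 81.8, 109 and 107 CPM in the same order. A single cell of the second cluster held 12 of its 100 Msi1 UMIs.

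A UMI was present for a median of 4 of the 7 genes per SSC-like cell and 4 per progenitor-like cell, and for 2 per differentiating-like cell. These medians are at full depth, and the median depth was 22293, 19301 and 10878 UMIs in the same order. A Pum2 UMI was present in 65.8% of SSC-like and 38.3% of differentiating-like cells, but at 5000 UMIs the expected shares were 23.3% and 24.8%. Msi1 went from 51.8% and 37.6% to 16.8% and 20.9%. Nanos2, Nanos3 and Msi2 stayed lower in differentiating-like cells at 5000 UMIs. The part of depth in the medians was not tested. Some undifferentiated cells held a UMI of all 7 genes. The cells that shared Nanos2 and Nanos3 UMIs were 34 of 191 undifferentiated cells, which is 79.1% of the cells with Nanos2.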
